A study of Mus musculus with 10 samples.

Results

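The genes described here encode the protein factors that start and extend protein synthesis on the ribosome, the translation initiation and elongation factors. They were chosen by name: gene symbols that begin with Eif1 to Eif6, Eef1 or Eef2, without the Eif2ak kinases and without pseudogenes, at a level above 0 log2 CPM (counts scaled to a common library total) in at least 2 libraries. Of 20270 genes listed, 67 matched the name pattern, 4 were Eif2ak kinases, 4 were pseudogenes and 1 (Eif4ebp3, 0 to 21 reads per library) was below the level. That left 58 members among the 15143 genes that met the same level. The rule used names and detection and no comparison between groups. Just inside the level were Eif5a2, at 2.67 to 3.91 log2 CPM, and Eif3j2, which exceeded it in 1 WT-labelled and 2 KO-labelled stressed libraries and stood between -0.41 and -0.20 in the others. Eif3j2 thus met the level only through stressed libraries, and its differences are tied to that and are given as a description.

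RNA sequencing covered 10 libraries of hematopoietic stem cells (HSCs), the blood-forming stem cells of bone marrow, from C57BL/6 mice. Cells had been purified by flow cytometry from primary recipients of lineage-negative marrow of Id1+/+ (WT) or Id1-/- (KO) donors, and each genotype had a normal group (3 libraries) and a stressed group (2 libraries). The time after transplantation is 4 weeks in the sample labels and 6 weeks in the series design, and what normal and stressed mean is not given in the sources used here. All 4 groups thus share transplantation into a recipient. Whether a donor marker was used in the sort, and whether replicates are separate animals or pools, is not stated either, so every p-value rests on the variation among libraries alone.

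Estimated depth was 25700000 to 33000000 reads per library. The targeted gene Id1, an inhibitor of basic helix-loop-helix transcription factors, was not lower in the KO: it stood at 0.36 to 2.13 log2 CPM in the 5 WT-labelled libraries and at 3.08 to 3.72 in the 5 KO-labelled ones (difference 2.50, SE 0.45, limma adjusted p = 0.018 in normal cells; 1.88, SE 0.55, adjusted p = 0.33 in stressed cells). Which exons the deletion removes is not given in the sources used here, so genotypes are called KO-labelled and WT-labelled throughout. All 10 HSC marker genes (Kit, Procr, Mecom and others) were detected in every group, with a summed level of 4104 to 4411 CPM in WT-labelled normal, 3563 to 3751 in KO-labelled normal, 3155 to 3271 in WT-labelled stressed and 2904 to 2969 in KO-labelled stressed libraries. KO-labelled normal library A held the highest or lowest value of all 10 libraries in 41.4% of the members and in 29.8% of all genes tested, and counts without it are given below.

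Translation begins when the initiator methionine tRNA, carried by the GTP-binding complex eIF2, joins the small ribosomal subunit with eIF1, eIF1A, eIF3 and eIF5 to form the 43S preinitiation complex. The eIF4 factors bring it to the capped end of the mRNA: eIF4E binds the cap, eIF4G is the scaffold and eIF4A is the RNA helicase, while the 4E-BP proteins hold eIF4E away from eIF4G. Elongation is then driven by eEF1A, which delivers aminoacyl-tRNA, its exchange factors eEF1B, and the translocase eEF2. HSCs are known for a rate of protein synthesis well below that of the progenitors they give rise to, and many of the mRNAs for elongation factors belong to the 5′ terminal oligopyrimidine (TOP) class controlled by mTOR.

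Id proteins hold back transcription factors that bind the E-box letters CANNTG, and the palindromic form CACGTG, which is among the CANNTG matches, is also the site letters of MYC, a regulator of translation genes. RefSeq promoter entries (build GRCm38.p6) were found for 45 of the 58 members. Within the 250 bases before the annotated start, read on both strands, CACGTG was present in 11 of these 45 members (24.4%) and in 1021 of 10425 tested genes with an entry (9.79%). CANNTG was present in 21 members (46.7%) and in 62.2% of the tested genes. The windows below show CACGTG in capitals with 12 bases on each side, 5′ to 3′ on the gene's strand, for members followed in the results: the changed genes Eif4g1 and Eif5a, the helicase gene Eif4a1, the cap-binding gene Eif4e, the eIF3 subunit gene Eif3k and the translocase gene Eef2.
Eif4g1 (chr16:20672661-20672690, plus strand): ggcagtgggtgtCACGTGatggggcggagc
Eif5a (chr11:69921443-69921472, minus strand): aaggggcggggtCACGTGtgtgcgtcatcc
Eif5a (chr11:69920791-69920820, minus strand): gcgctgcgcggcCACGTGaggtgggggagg
Eif4a1 (chr11:69672595-69672624, minus strand): cgatcgcctccgCACGTGtaaaggtgctgg
Eif4e (chr3:138527028-138527057, plus strand): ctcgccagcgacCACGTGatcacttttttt
Eif4e (chr3:138527192-138527221, plus strand): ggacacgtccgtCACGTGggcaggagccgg
Eif3k (chr7:28981915-28981944, minus strand): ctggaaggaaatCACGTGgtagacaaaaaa
Eef2 (chr10:81176576-81176605, plus strand): acccggcgccgtCACGTGacgcacccaacc
These are matches of letters in the reference, and binding was not measured.

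The members spanned a wide range of levels, which can be compared between genes only per length of transcript. On the scale of log2 CPM per kilobase of exon, Eef1a1 was at 10.5, Eif5a, the factor that helps ribosomes past stalling sequences, at 9.12, Eef2 at 8.34 and Eif1 at 7.94. The libraries of these 4 genes did not overlap with those of the next gene in the order. From Eef1g (7.36) down to Eif5b (3.07), each gene's libraries overlapped with those of its lower neighbour, so that part of the order is not resolved. At the low end were Eif4ebp2 (2.25), Eif5a2 (1.17), a paralog of Eif5a, and Eif3j2 (-1.12). The X-linked and Y-linked genes for the gamma subunit of eIF2 were both detected in all 10 libraries, Eif2s3x at 5.30 to 6.07 and Eif2s3y at 5.37 to 5.89 log2 CPM.

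Across the 58 members, 8 were called in at least 1 of the 4 pairwise comparisons, where called means an adjusted p under 0.05 in limma's test over all 15143 genes. In the single comparisons, 0.145% to 4.5% of all genes were called. The share of all genes called in at least 1 comparison was not computed, so the 8 serve only as a list to follow. In mm10 they lie on chromosome 9 (Eef1a1, 78478449 to 78489151, minus strand), chromosome 11 (Eif5a, 69916714 to 69921958, minus; Eif1, 100319885 to 100322096, plus), chromosome 7 (Eif4g2, 111067750 to 111083030, minus), chromosome 16 (Eif4g1, 20668313 to 20692884, plus; Eif4a2, 23107444 to 23114136, plus), chromosome 15 (Eif3e, 43250058 to 43282719, minus) and chromosome 1 (Eef1b2, 63176825 to 63180486, plus). Of these 8, 6 have a promoter entry, and 2 of those (Eif4g1 and Eif5a) hold CACGTG, beside 11 of the 45 members with an entry (24.4%).

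**Figure D1:**
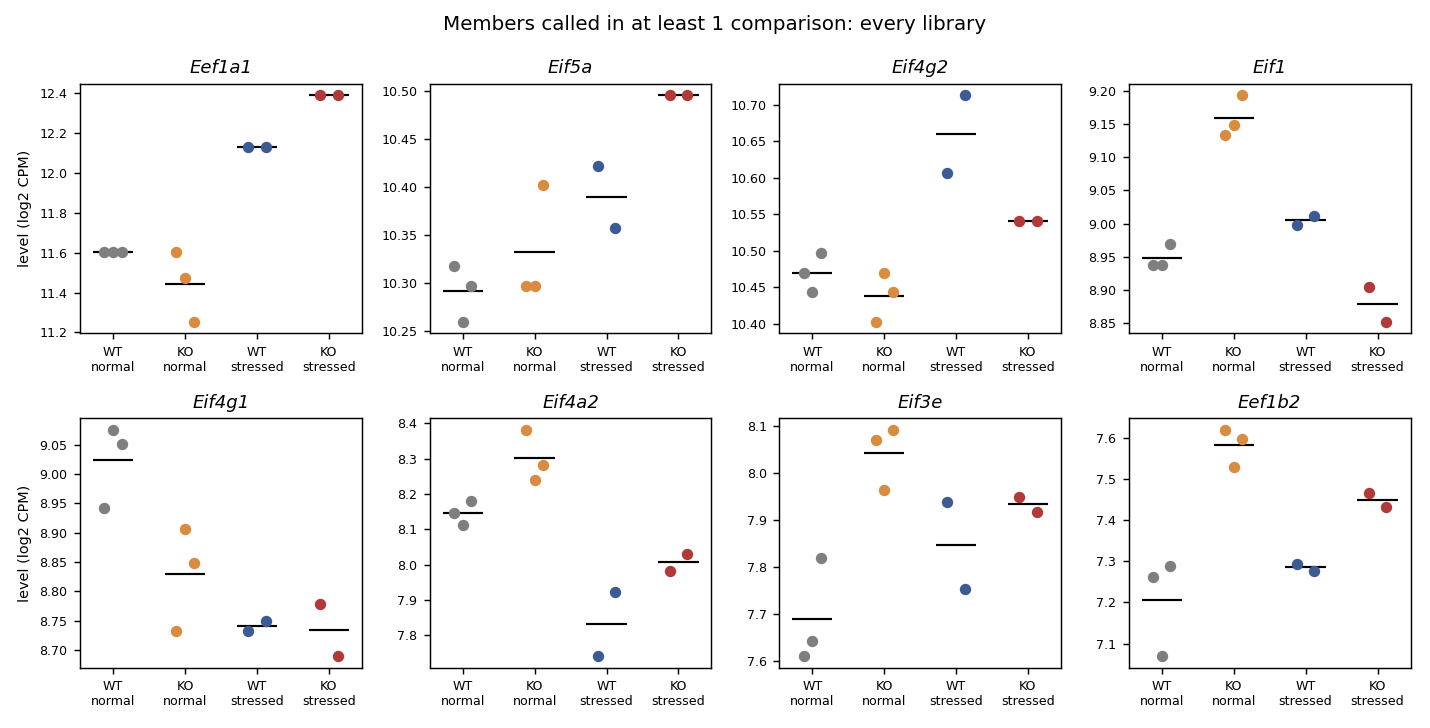
Level (log2 CPM, vertical axis, a separate range per panel that does not start at 0) of the 8 members called in at least 1 comparison, 1 point per library and a bar at the group mean, in WT-labelled and KO-labelled normal (n = 3 each) and stressed (n = 2 each) HSCs. Eef1a1 was at 11.25 to 11.60 in the 6 normal libraries, 12.13 in the 2 WT-labelled stressed libraries and 12.39 in the 2 KO-labelled stressed libraries.

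In normal HSCs, 3 members rose in KO-labelled against WT-labelled cells and none fell: Eif1, which guards the choice of the start codon, Eef1b2, a nucleotide exchange factor for eEF1A, and Eif3e, a subunit of the eIF3 scaffold. These 3 of 58 (5.17%) stand beside 1.56% of all genes called in this comparison (1.23% higher and 0.324% lower). By direction alone, 39 members had a higher mean in KO-labelled cells and 19 a lower one. The median log2 difference was 0.11 over the members and -0.01 over all genes. In 23 members every KO-labelled library lay above every WT-labelled one and in 5 members below, where 10.9% and 8.64% of all genes did so (19.5% in either direction). In bulk RNA, a change in the share of a cell type and a change in transcripts per cell cannot be told apart.

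Eif1 stood at 8.94, 8.94 and 8.97 log2 CPM in WT-labelled normal libraries A to C and at 9.13, 9.15 and 9.19 in the KO-labelled ones. The groups did not overlap, and the spread within each was narrow. The log2 difference was 0.21 (SE 0.039, adjusted p = 0.019). Eef1b2 was at 7.26, 7.07 and 7.29 in WT-labelled and at 7.62, 7.53 and 7.60 in KO-labelled libraries, with WT-labelled library B the lowest. It differed by 0.38 (SE 0.072, adjusted p = 0.024). Eif3e was at 7.61, 7.64 and 7.82 in WT-labelled and at 8.07, 7.96 and 8.09 in KO-labelled libraries, again without overlap. Its difference was 0.35 (SE 0.074, adjusted p = 0.039).

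These 3 calls sat close to the threshold. Each kept its direction in 21 alternative analyses, with adjusted p from 0.014 to 0.24 for Eif1, 0.016 to 0.14 for Eef1b2 and 0.025 to 0.19 for Eif3e. The count of called members was 0 without WT-labelled normal library A, without WT-labelled normal library B or without KO-labelled normal library C, 1 without either KO-labelled stressed library, and 2 without KO-labelled normal library A. Those 2 were Eif1, which was higher (adjusted p = 0.027), and Eef1a1, which was lower in KO-labelled cells (-0.24, adjusted p = 0.046). The calls of Eef1b2 and Eif3e were lost there (adjusted p = 0.077 and 0.11). Without WT-labelled normal library C, Eef1b2 (adjusted p = 0.045) and Eif3e (adjusted p = 0.034) stayed called and Eif1 did not.

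Among the other 43S genes, Eif1b, the paralog of Eif1, was at 6.41, 6.49 and 6.32 log2 CPM in WT-labelled and 6.88, 6.72 and 6.66 in KO-labelled normal libraries (difference 0.34, SE 0.098, adjusted p = 0.13). Eif2s1, the alpha subunit of eIF2 and the target of the stress kinases, was at 7.47, 7.56 and 7.55 against 7.84, 7.82 and 7.65 (0.24, SE 0.068, adjusted p = 0.12). Eif5, the GTPase-activating protein of eIF2, went the other way in mean, with 8.98, 8.95 and 9.0 in WT-labelled and 8.84, 8.80 and 8.78 in KO-labelled libraries (-0.17, SE 0.041, adjusted p = 0.069). In all 3 genes the genotypes did not overlap, yet none passed the threshold. None of the 5 eIF2B genes, which encode the exchange factor that recharges eIF2, was called or separated the genotypes, and their differences ran from -0.11 to 0.29.

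Of the 14 eIF3 genes, 7 were separated upward and 1 downward in KO-labelled normal cells, where 10.9% and 8.64% of all genes were. Their median difference was 0.13, with 11 of 14 (10 to 12 over the alternatives) higher in mean in KO-labelled normal cells. That median was 0.07 without KO-labelled normal library A and 0.08 without WT-labelled normal library C, and above 0 in every alternative run. Eif3i was at 7.20, 7.29 and 7.20 in WT-labelled and 7.45, 7.51 and 7.52 in KO-labelled libraries (0.26, SE 0.064, adjusted p = 0.076). Eif3k was at 7.08, 6.90 and 7.02 against 7.54, 7.27 and 7.25 (0.36, SE 0.088, adjusted p = 0.082). The largest subunits of the core, Eif3a, Eif3b and Eif3c, had differences of -0.07, -0.11 and -0.00. Summed over the complex, the eIF3 genes took 0.278% to 0.280% of all CPM in WT-labelled normal and 0.296% to 0.302% in KO-labelled normal libraries. These shares did not overlap between the genotypes. They are sums of quantile normalized values, in which each rank has the same value in every library, and not shares of reads.

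No eIF4 gene was called in this comparison. Eif4e was at 7.40, 7.54 and 7.68 in WT-labelled and 7.83, 7.81 and 7.77 in KO-labelled libraries (0.26, SE 0.072, adjusted p = 0.12). Eif4g1, the main scaffold, was at 8.94, 9.08 and 9.05 against 8.73, 8.91 and 8.85 (-0.19, SE 0.056, adjusted p = 0.14). The KO-labelled libraries lay above the WT-labelled ones for Eif4e and below them for Eif4g1. Of the 4E-BP genes, Eif4ebp1 was at 6.23, 6.29 and 6.37 against 6.48, 6.37 and 6.38, with the lowest KO-labelled value beside the highest WT-labelled one (0.12, SE 0.084, adjusted p = 0.58). The anti-association factor gene Eif6, which keeps the ribosomal subunits apart, was at 7.14, 7.09 and 7.07 against 7.38, 7.19 and 7.32 (0.20, SE 0.077, adjusted p = 0.26).

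The elongation factors were divided. Beside Eef1b2, the other eEF1B subunit genes Eef1d and Eef1g had higher means in KO-labelled normal cells, Eef1d at 7.27, 7.35 and 7.17 against 7.45, 7.45 and 7.46 (0.19, adjusted p = 0.24) and Eef1g at 8.67, 8.68 and 8.65 against 8.93, 8.81 and 8.83 (0.19, adjusted p = 0.15). Eef1a1 and Eef2, which do the work of delivery and translocation, had lower means. Eef2 was at 10.21, 10.10 and 10.14 against 9.92, 10.07 and 10.04 (-0.14, SE 0.054, adjusted p = 0.27). Eef1a1 differed by -0.16 (SE 0.063, adjusted p = 0.28). Among the regulators of elongation, Eef1akmt1, a methyltransferase gene for eEF1A, was at 4.73, 4.98 and 4.58 against 5.41, 5.01 and 5.02 (0.38, SE 0.17, adjusted p = 0.35), and Eef1e1, an auxiliary gene of the tRNA synthetase complex, at 5.10, 5.31 and 5.23 against 5.37, 5.78 and 5.35 (0.29, SE 0.14, adjusted p = 0.39). The genotypes were apart in both genes, short of the threshold. Granulocyte and monocyte markers (9 of 9 tested) also differed between these groups, at 94.6 to 97.2 CPM in WT-labelled and 131 to 136 CPM in KO-labelled normal libraries, with Ltf at 0 reads in the latter. Their part in the member values was not tested.

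**Figure D2:**
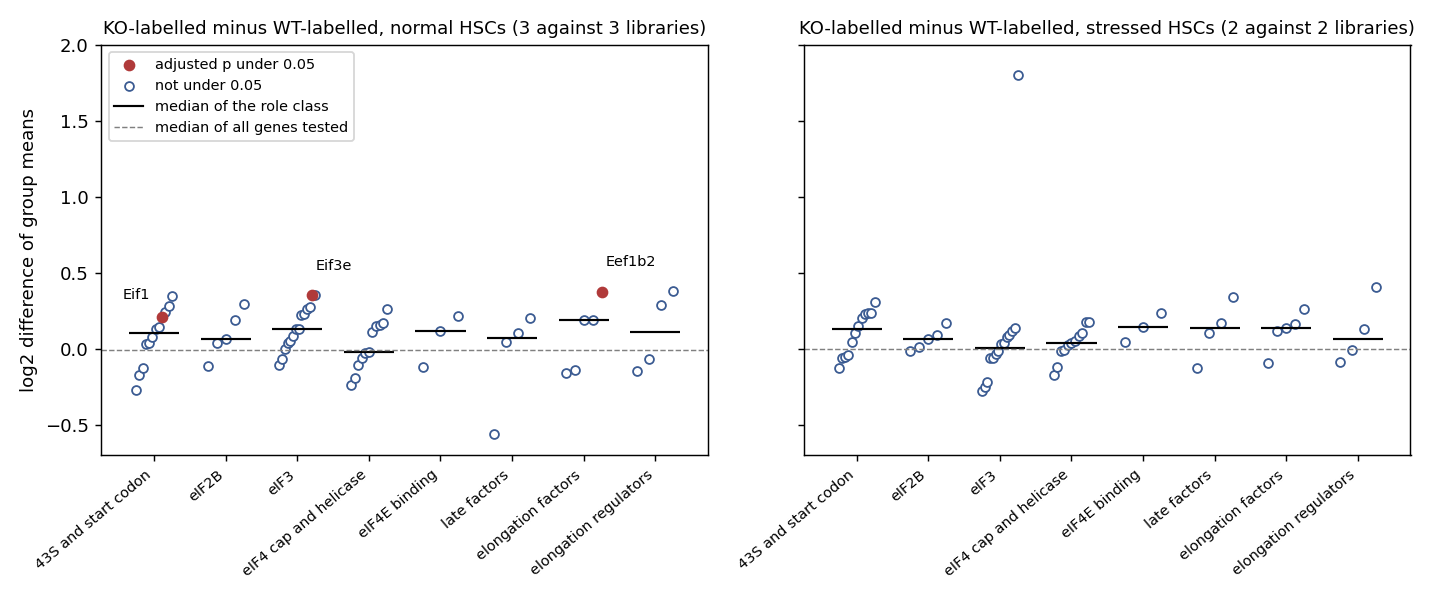
Log2 difference of group means, KO-labelled minus WT-labelled (vertical axis), for the 58 members arranged by role (horizontal axis), in normal HSCs on the left and stressed HSCs on the right. Filled points are the 3 called members, solid bars are class medians and the dashed line is the median of all genes tested. The point at 1.80 on the right is Eif3j2.

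In stressed HSCs no member was called between the genotypes, where 0.145% of all genes were. At an unadjusted p under 0.05, 5 members stood above and 4 below the WT-labelled level, beside 8.88% of all genes in either direction (668 above and 676 below). Eif3j2 is among the 5. Of the members, 1 was called without KO-labelled normal library C (Eef1a1, adjusted p = 0.022), beside 19 of all genes. The median difference over the members was 0.07, against 0.00 over all genes. With 2 libraries against 2, all KO-labelled values lay above the WT-labelled ones in 26 members and below in 7, beside 19.2% and 19.9% of all genes (39.1% in either direction). Eif3j2, which met the level only through stressed libraries, is among the 26. Plasma cell transcripts differed between these groups too. B and plasma cell markers summed to 203 to 205 CPM in KO-labelled stressed and 40.1 to 43.9 CPM in WT-labelled stressed libraries (6 of 8 markers tested), with Ebf1 at 0 reads in the WT-labelled group. Their part in the member values was not tested.

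Eef1a1 had the smallest p of the members, at 12.13 in both WT-labelled and 12.39 in both KO-labelled stressed libraries (0.26, SE 0.077, adjusted p = 0.34). Eif4g2, a relative of the eIF4G scaffold that lacks the eIF4E-binding region, was at 10.61 and 10.71 against 10.54 and 10.54 (-0.12, SE 0.040, adjusted p = 0.41). Eif3l was at 7.89 and 7.98 against 7.67 and 7.71 (-0.25, SE 0.091, adjusted p = 0.46). Eif1 was at 9.0 and 9.01 against 8.90 and 8.85 (-0.13, SE 0.047, adjusted p = 0.47). In Eif4g2, Eif3l and Eif1 the KO-labelled libraries were lower, and for Eif1 and Eif3l that is the opposite order to normal cells. The nominally highest difference, 1.80 for Eif3j2 (SE 0.59, adjusted p = 0.41), rests on few reads: 120 and 70 in the KO-labelled stressed libraries and 22 to 29 in each of the others. Eif3j2 is 99.41% identical over 2379 bases to Eif3j1, so its reads could have been assigned to either gene, and with both genes summed the difference was -0.14.

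Between stressed and normal WT-labelled HSCs, 4 members were called: Eef1a1 and Eif4g2 were higher in stressed cells, and Eif4g1 and Eif4a2 were lower. Of all genes 3.3% were called in this comparison (1.55% higher and 1.75% lower), against 6.90% of the members. Means were higher in stressed cells for 39 members and lower for 19, with a median of 0.08 against 0.01 over all genes. The stressed libraries lay wholly above the normal ones in 22 members and wholly below in 8, together 51.7% of the members beside 36.4% of all genes. Eif3j2, which met the level only through stressed libraries, is among the 22 and among the 39 with a higher mean.

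Eef1a1 held 11.60 log2 CPM (3112 CPM) in each WT-labelled normal library and 12.13 (4492 CPM) in each WT-labelled stressed library. By CPM, which is not divided by length, it ranked 4 among all genes in the normal libraries and 2 in the stressed ones. Quantile normalization gives every library the same value at a given rank, so these identical values hide the spread between replicates and the SE is likely too small for the top genes. The log2 difference was 0.53 (SE 0.070, adjusted p = 0.0022), and the call held in 20 of 21 alternatives, with adjusted p of 0.067 at most.

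Within eIF4, Eif4g2 was at 10.47, 10.44 and 10.50 in normal and at 10.61 and 10.71 in stressed WT-labelled libraries (0.19, SE 0.037, adjusted p = 0.017). Eif4g1 moved down, from 8.94, 9.08 and 9.05 to 8.73 and 8.75 (-0.28, SE 0.063, adjusted p = 0.034). The helicase gene Eif4a2 fell from 8.14, 8.11 and 8.18 to 7.74 and 7.92 (-0.31, SE 0.070, adjusted p = 0.034). None of these 3 genes had overlapping conditions. Over all genes, 500 were called with every library and 251 to 612 with 1 normal library left out. Leaving out 1 library ended the call of Eif4g1 in 6 instances, of Eif4a2 in 6 and of Eif4g2 in 3, and WT-labelled normal library B was among them for all 3 (adjusted p = 0.12 for Eif4g1, 0.079 for Eif4a2 and 0.070 for Eif4g2). The number of called members was 1 without that library, 2 without WT-labelled normal library C or any of the 4 stressed libraries, and 5 without KO-labelled normal library A.

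Several members came near the threshold in WT-labelled cells. Eif5 went from 8.98, 8.95 and 9.0 to 8.82 and 8.77 (-0.18, SE 0.045, adjusted p = 0.057). Eif3l went from 7.78, 7.52 and 7.56 to 7.89 and 7.98 (0.32, SE 0.083, adjusted p = 0.070; 0.026 without WT-labelled normal library A). Eif4a1, the other cytoplasmic eIF4A helicase, went from 9.08, 9.09 and 9.14 to 9.25 and 9.31 (0.17, SE 0.048, adjusted p = 0.086). Eef2k, the kinase that inactivates eEF2, was at 8.39, 8.34 and 8.34 in normal and 8.22 and 7.92 in stressed libraries (-0.28, SE 0.094, adjusted p = 0.14). The conditions were apart in each of these 4 genes.

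Between stressed and normal KO-labelled HSCs, 4 members were also called: Eef1a1 and Eif5a were higher in stressed cells, and Eif1 and Eif4a2 were lower. Called genes made up 4.5% of all genes here (2.23% higher and 2.28% lower). The members had no common direction, with 29 means higher and 29 lower and a median of 0.01 (0.00 over all genes). In 22 members the conditions did not overlap (11 upward and 11 downward), which is 37.9% beside 33.1% of all genes. Eif3j2, which met the level only through stressed libraries, is among the 11 upward and the 29 with a higher mean.

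Eef1a1 was at 11.60, 11.48 and 11.25 (3112, 2848 and 2443 CPM) in KO-labelled normal libraries A to C and at 12.39 (5375 CPM) in both stressed libraries, where it ranked 1 among all genes by CPM, not divided by length. The difference was 0.95 (SE 0.070, adjusted p = 2.6e-05). The call held in all 21 alternatives, with adjusted p of 0.0092 at most. Because of Eef1a1, the 5 elongation factor genes took 0.432% to 0.495% of all CPM in KO-labelled normal and 0.719% to 0.721% in KO-labelled stressed libraries. In WT-labelled cells the same share was 0.492% to 0.501% in normal and 0.627% to 0.636% in stressed libraries. All shares here are of quantile normalized values, in which each rank has the same CPM in every library. They are not shares of reads. All 58 members together took 1.64% to 1.69% in normal, 1.82% to 1.86% in WT-labelled stressed and 1.94% to 1.95% in KO-labelled stressed libraries, and without Eef1a1 the shares were close, at 1.35% to 1.40% in normal and 1.37% to 1.41% in stressed libraries.

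Eif1 fell from 9.13, 9.15 and 9.19 to 8.90 and 8.85 in KO-labelled cells (-0.28, SE 0.043, adjusted p = 0.0038), and the call was lost without KO-labelled stressed library B (adjusted p = 0.057). Eif4a2 fell from 8.38, 8.24 and 8.28 to 7.98 and 8.03 (-0.30, SE 0.070, adjusted p = 0.037). Eif5a rose from 10.30, 10.30 and 10.40 to 10.50 in both stressed libraries, where it held the same rank (0.16, SE 0.039, adjusted p = 0.038). No condition overlapped for these 3 genes. Over all genes, 682 were called with every library and 474 to 598 with 1 normal library left out. The calls of Eif4a2 and Eif5a ended when 1 library was left out in 7 instances each, with adjusted p up to 0.21 and 0.20. The count of called members was 1 without KO-labelled stressed library B and 2 without KO-labelled stressed library A, KO-labelled normal library A or any of the WT-labelled normal libraries.

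Cell marker sums also differed between the conditions. Cycling markers (5 of 5 tested, Mki67 and Top2a among them) summed to 452 to 545 CPM in the normal and 845 to 947 CPM in the stressed libraries. Megakaryocyte and platelet markers (5 of 5) summed to 585 to 684 CPM in normal and 1037 to 1121 CPM in stressed libraries, while HSC markers had the lower sums in stressed libraries given above. The T and NK list had 2 of 5 markers listed and no Cd3 gene, at 58.7 to 68.3 CPM in normal and 98.1 to 121 CPM in stressed libraries. Most of this sum was Nkg7, at 5.71 to 6.03 log2 CPM in normal and 6.58 to 6.88 in stressed libraries. Klrb1c did not rise with it, at 1.54 to 2.84 in normal and -0.14 to 1.95 in stressed libraries. Erythroid markers (7 of 8 tested) summed to 197 to 232 CPM in normal and 109 to 171 CPM in stressed libraries, and stromal and endothelial markers (2 of 5 tested) to 21.5 to 40.4 CPM in all libraries. B and plasma cell markers summed to 46.5 to 54.7 CPM in KO-labelled normal and 203 to 205 CPM in KO-labelled stressed libraries, and to 44.5 to 52.0 and 40.1 to 43.9 CPM in the WT-labelled ones. Granulocyte and monocyte markers summed to 131 to 136 CPM in KO-labelled normal and 110.5 to 117.5 CPM in KO-labelled stressed libraries, and to 94.6 to 97.2 and 100.8 to 101.2 CPM in the WT-labelled ones, with Ctsg at 0 reads in the WT-labelled stressed group. Their part in the member values was not tested.

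Whether the genotypes differed in their change with stress was tested by the interaction, the change in KO-labelled minus the change in WT-labelled cells. No member was called, beside 0.0198% of all genes (3 genes), and at an unadjusted p under 0.05 there were 5 members with a higher and 6 with a lower value, beside 9.15% of all genes (680 higher and 706 lower). Eif3j2 is among the 5, and its interaction changed sign after summing with Eif3j1. Eif1 had the smallest p, at -0.34 (SE 0.061, adjusted p = 0.098), with a change of 0.06 in WT-labelled and -0.28 in KO-labelled cells. Eef1a1 followed at 0.42 (SE 0.10, adjusted p = 0.23) and Eif3l at -0.48 (SE 0.12, adjusted p = 0.23). The larger change of Eef1a1 in KO-labelled cells is therefore not shown to differ from that in WT-labelled cells. Across these comparisons the 2 stress changes and the interaction share libraries, so their values are given side by side only.

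In 9 of the 14 eIF3 genes the stressed mean was above the normal one in WT-labelled and under it in KO-labelled cells, as in 3 of 5 eIF2B genes, 20 of all 58 members and 20.5% of all genes tested. The median change of the 14 genes was 0.15 in WT-labelled and -0.07 in KO-labelled cells, and 11 of 14 had a negative interaction (median -0.17, against -0.00 over all genes). With the trend over gene length removed this median was -0.11, and it was below 0 in every alternative run. No eIF3 gene was called in either stress comparison or in the interaction. Eif3i was at 7.20, 7.29 and 7.20 (WT-labelled normal), 7.51 and 7.47 (WT-labelled stressed), 7.45, 7.51 and 7.52 (KO-labelled normal) and 7.48 and 7.37 (KO-labelled stressed). For this subunit the WT-labelled normal libraries were thus the only ones below the rest, and the other 3 groups overlapped.

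**Figure D3:**
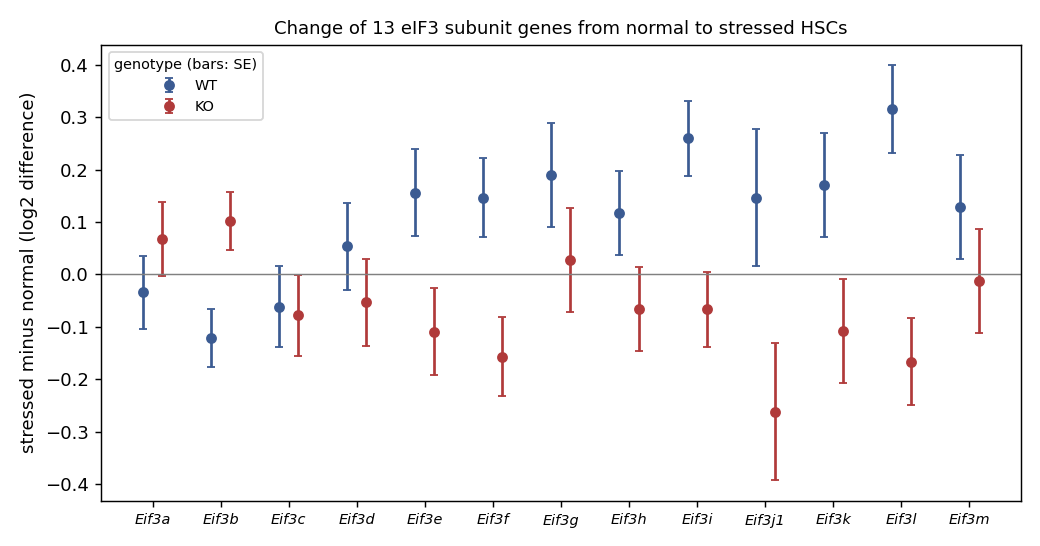
Change from normal to stressed HSCs (log2 difference with SE bars, vertical axis) of 13 eIF3 genes (horizontal axis) in WT-labelled and KO-labelled cells. Eif3j2 is left out of the plot because of its scale (2.04 in KO-labelled cells). Eif3l, at 0.32 in WT-labelled and -0.17 in KO-labelled cells, shows the widest gap of those plotted.

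Close paralogs were compared within libraries, as the log2 level of a gene minus that of its partner, for 6 pairs by condition and by genotype (12 two-sided exact permutation tests over libraries, adjusted together). The eIF4A helicase pair stood apart by condition: Eif4a1 minus Eif4a2 was 0.94, 0.98 and 0.96 in WT-labelled normal, 0.81, 1.05 and 0.89 in KO-labelled normal, 1.51 and 1.39 in WT-labelled stressed and 1.38 and 1.36 in KO-labelled stressed libraries. All 4 stressed libraries lay above all 6 normal ones. The mean was 1.41 ± 0.066 (SD, n = 4) in stressed and 0.937 ± 0.082 (SD, n = 6) in normal libraries, a difference of 0.472 (exact permutation p = 0.0048, the smallest these libraries allow, adjusted p = 0.057). It was 0.486 within WT-labelled and 0.457 within KO-labelled cells. The adjusted value does not pass the threshold. With 12 tests adjusted together, a single pair at the smallest possible p cannot pass that threshold, however fully its conditions separate. The adjusted value therefore cannot decide whether this pair differs by condition. The pseudogene Eif4a-ps4 is 99.92% identical to Eif4a1 over 1218 bases and was listed at 3.57% of the level of Eif4a1, so some reads could have been assigned to either.

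**Figure D4:**
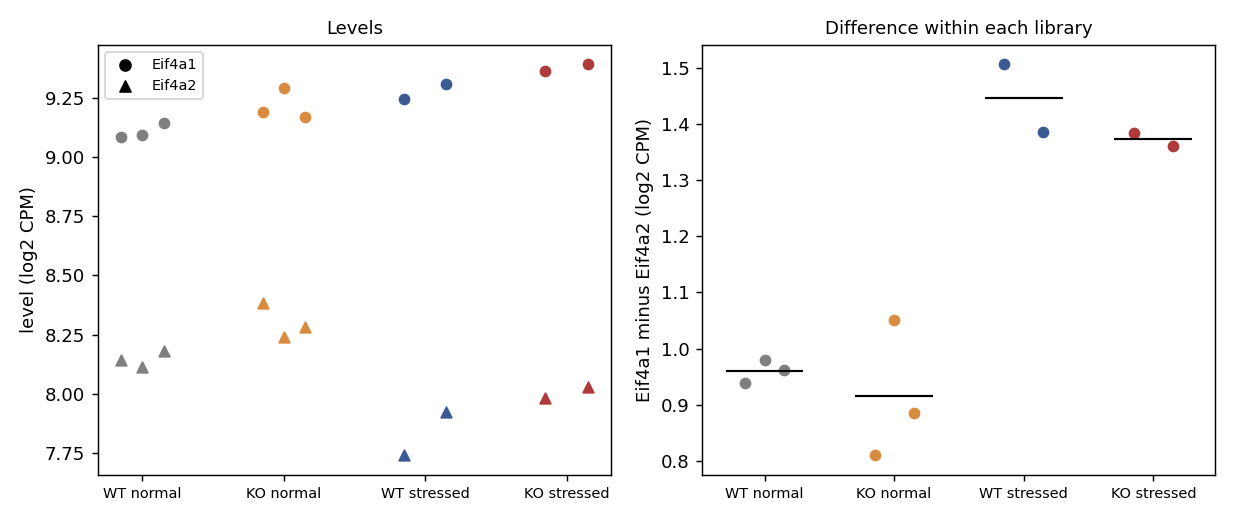
Left, levels of Eif4a1 (circles) and Eif4a2 (triangles) in log2 CPM for each library of the 4 groups; right, Eif4a1 minus Eif4a2 within each library (log2), with a bar at the group mean. The 4 stressed libraries lie between 1.36 and 1.51 and the 6 normal libraries between 0.81 and 1.05.

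The other 5 pairs had exact permutation p values of 0.076 or more before adjustment. By genotype, Eif1 minus Eif1b averaged 2.53 ± 0.12 (SD, n = 5) over the WT-labelled libraries and 2.38 ± 0.11 (SD, n = 5) over the KO-labelled libraries (exact permutation p = 0.079, adjusted p = 0.32). Eif4ebp1 minus Eif4ebp2 was 1.77 ± 0.11 (SD, n = 4) in stressed and 1.56 ± 0.18 (SD, n = 6) in normal libraries (exact permutation p = 0.076, adjusted p = 0.32). Eif4g1 minus Eif4g3 differed by -0.148 between conditions, Eif1ax minus Eif1a by -0.005 and Eif5a minus Eif5a2 by 0.103. In all 5 pairs the groups overlapped.

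Of 48 other genes of the pathway (termination and recycling, poly(A) binding, signalling, modification of eIF5A and eEF2, reinitiation and mitochondrial factors), few were called. Between genotypes in normal cells none rose and 1 fell, where 1.56% of all genes were called: Eefsec, the elongation factor for selenocysteine (-0.49, SE 0.096, adjusted p = 0.027). None was called between genotypes in stressed cells, on stress in WT-labelled cells or in the interaction, where at an unadjusted p under 0.05 the counts were 5, 8 and 9, beside 8.88%, 16.8% and 9.15% of all genes. In KO-labelled cells 2 of the 48 were called higher in stressed than in normal libraries and none lower, where 4.5% of all genes were called. They were Eefsec (0.70, SE 0.11, adjusted p = 0.0039) and Pdcd4, which binds and blocks eIF4A (0.40, SE 0.097, adjusted p = 0.042). Pdcd4 had a like value in WT-labelled cells (0.39, SE 0.097, adjusted p = 0.057). Of the 16 signalling genes none was called in normal cells, and 13 had a lower mean in KO-labelled cells (median -0.06), among them Impact, an antagonist of the stress kinase GCN2, at -0.59 (adjusted p = 0.14).

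Of 9 members that belong to the TOP class, 2 (Eef1b2 and Eif3e) were called higher in KO-labelled normal cells, beside 1.23% of all genes. The median of the 9 was 0.19, with 6 higher and 3 lower in mean. The 3 lower ones were Eef1a1 (-0.16), Eef2 (-0.14) and Eif4b (-0.06), none of them called. Of 4 TOP genes outside the members, 3 were called higher: Rack1 (0.30, adjusted p = 0.0033), Npm1 (0.31, adjusted p = 0.0095) and Tpt1 (0.34, adjusted p = 0.017). The fourth, Pabpc1, was not. On stress, Eef1a1 was the only called gene of these 13 in either genotype, where 3.3% (WT-labelled) and 4.5% (KO-labelled) of all genes were called. The median of the 9 members was 0.08 in WT-labelled and -0.07 in KO-labelled cells. Members with CACGTG in the promoter window had a median genotype difference of 0.04 in normal cells (11 members) and those without it 0.07 (34 members). On stress the medians were 0.08 and 0.06 in WT-labelled cells and -0.00 and 0.01 in KO-labelled cells.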

How the data were processed

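The deposited values are log2 CPM per gene, and limma voom is named as their source only in the name of the authors' table. The submitters' processing notes name Bowtie2, featureCounts and mm10, without versions. Strandedness and the authors' gene filter are not stated, so reads of overlapping genes or near-identical copies could not be told apart. Every library holds the same value at each rank, so the values had been quantile normalized. Depth was estimated from the steps of the low values. From the deposited log2 values, genes above 0 in at least 2 of 10 libraries were kept (15143), and 4 group means were fitted in R 4.3.3 with limma 3.58.1, leaving 6 residual degrees of freedom and letting variances follow the mean level, with Benjamini-Hochberg adjustment over all genes tested, without a replicate block. Differences are log2 differences of group means. The model was tested on simulated data. Gene positions and exon lengths come from GENCODE M21, promoters from RefSeq GRCm38.p6, and identities of copies from blastn 2.17.0. Called members, the smallest p per role class, a fixed set of factors and paralog pairs are named with their values. The members, lists and rules were chosen with earlier results of these data known. Alternatives covered filters, pseudocount, scaling, weights, gene length, the threshold, a replicate block, a fit of the compared groups alone, each library left out and, added after seeing the data, the summing of near-identical copies.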

Additional observations from a re-analysis of the deposited data

How the results depend on the processing

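The counts of called members were 3 (KO-labelled against WT-labelled, normal), 0 (the same, stressed), 4 (stress, WT-labelled), 4 (stress, KO-labelled) and 0 (interaction). Over all genes the counts were 236, 22, 500, 682 and 3. With no variance trend they were 0, 1, 0, 2 and 0, and with only the groups compared 0, 0, 2 and 1 for the pairwise comparisons. Over all genes these 2 settings gave 45, 25, 256, 346 and 8, and 133, 0, 330 and 249. Removing the trend with gene length gave 1 in normal cells and 2 for stress in WT-labelled cells, beside 126 and 426 of all genes. Without the filter on low values, stress in KO-labelled cells gave 2, beside 597 of all genes. At a threshold of 0.10 the counts were 6, 0, 8, 6 and 1, beside 400, 37, 872, 1067 and 26 of all genes. Leaving out each library in turn gave 0 to 3, 0 to 1, 1 to 5, 1 to 4 and 0 to 0, with a lone stressed library assumed to vary like the other groups. A stricter filter, log2(CPM + 1), other scalings, library weights and summed copies kept each count within 1.5 times. With the replicate letter as a replicate block the counts were 3, 0, 2, 3 and 0, beside 181, 11, 289, 447 and 2 of all genes. Libraries with the same letter were not seen to deviate together (correlations -0.02 to 0.04 over 13 pairs). In groups of 2 libraries the deviations mirror each other, so these pairs are not independent. A weak pairing by letter can therefore not be excluded. Of the 290 differences of a member in a comparison, 86 changed sign in at least 1 alternative, among them that of Eif3c in normal cells. Of the 69 with an unadjusted p under 0.05, 3 did so, all of Eif3j2 after summing with Eif3j1. The count of 1 in stressed cells was Eif3j2 with no variance trend (adjusted p = 0.019) and Eef1a1 without KO-labelled normal library C.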
